A study of Mus musculus with 6 samples.

Results

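Nuclear genes whose products shape, divide or clear mitochondria were followed in the quadriceps of AR97Q mice. They comprised the fusion GTPases Mfn1, Mfn2 and Opa1, the fission GTPase Dnm1l with its adaptors Fis1 and Mff, and the mitophagy genes Pink1, Bnip3, Bnip3l and Fundc1. The genes were chosen by function, and their probes were found by matching the transcript identifier of each probe that is not a control to the mouse RefSeq annotation. All 10 were found among the 44916 genes and transcripts on the array, with 17 of its 56605 probes. AR97Q mice, in which spinal and bulbar muscular atrophy is modelled, carry a human transgene with an expanded CAG repeat on a C57BL/6J background. All 6 mice were transgenic males aged 9 weeks, so both groups carried the transgene, and no wild-type array was analysed here. The exercise group (n = 3 mice) had trained for several weeks on a forced running wheel at low to moderate intensity and was sampled on the day after the last run. The sedentary group (n = 3 mice) had not trained. Each mouse gave 1 Agilent array, hybridised in a single colour. The promoter that drives the transgene is not given in the sources used here.

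Mitochondria in muscle form a network that is remodelled by opposing activities. Mfn1 and Mfn2 join outer membranes and Opa1 joins inner membranes, whereas Dnm1l, which encodes the cytosolic GTPase Drp1, is recruited by outer membrane adaptors to cut the organelle. Damaged mitochondria are marked for autophagy by the kinase Pink1, which acts through ubiquitin, or are bound directly to the autophagy machinery by the outer membrane receptors Bnip3, Bnip3l and Fundc1.

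The RefSeq promoter table (GRCm38.p6) holds 9 of the 10 genes. Bnip3l is not among them. For each of the 9, the 250 bases before the start given in this table were searched, and base positions are counted from that start. In the gene annotation, Dnm1l, Mfn1, Opa1 and Fundc1 begin further upstream. Their windows therefore lie partly, and that of Fundc1 wholly, inside the annotated gene. Windows are shown for Mfn2 and Pink1, the members that passed the test, and for Dnm1l, the only member with a lower value after exercise. The window of Bnip3, a known target of hypoxia signalling, is also shown. All 4 lie on the minus strand and are written 5′ to 3′ in the direction of transcription. Capitals mark matches, on either strand, to the letters of the motifs searched. The windows are Mfn2 at chr4:147904910-147905159, Pink1 at chr4:138326297-138326546, Dnm1l at chr16:16359032-16359281 and Bnip3 at chr7:138909507-138909756.
Mfn2: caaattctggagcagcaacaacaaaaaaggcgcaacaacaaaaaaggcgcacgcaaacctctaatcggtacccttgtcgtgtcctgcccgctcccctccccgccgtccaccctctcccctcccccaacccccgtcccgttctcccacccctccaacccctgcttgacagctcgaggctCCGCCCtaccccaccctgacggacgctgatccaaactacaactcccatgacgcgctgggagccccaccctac
Pink1: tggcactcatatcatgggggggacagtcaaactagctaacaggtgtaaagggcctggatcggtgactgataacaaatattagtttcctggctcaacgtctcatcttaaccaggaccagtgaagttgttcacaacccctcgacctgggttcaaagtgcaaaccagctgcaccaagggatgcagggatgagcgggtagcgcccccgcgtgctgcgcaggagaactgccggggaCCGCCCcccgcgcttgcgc
Dnm1l: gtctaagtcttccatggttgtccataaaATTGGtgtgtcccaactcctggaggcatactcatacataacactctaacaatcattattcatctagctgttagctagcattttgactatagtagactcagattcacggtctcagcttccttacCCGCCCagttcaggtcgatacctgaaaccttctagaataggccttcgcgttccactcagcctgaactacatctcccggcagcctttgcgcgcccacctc
Bnip3: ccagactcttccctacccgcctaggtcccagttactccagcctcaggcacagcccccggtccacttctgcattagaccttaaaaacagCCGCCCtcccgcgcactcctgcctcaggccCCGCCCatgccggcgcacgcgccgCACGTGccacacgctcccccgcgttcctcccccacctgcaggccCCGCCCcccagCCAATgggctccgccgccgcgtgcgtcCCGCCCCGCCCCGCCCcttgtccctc
The motifs searched were the GC box (GGGCGG), the CCAAT box (CCAAT), the TATA box (TATAAA), the E-box (CACGTG), the core of the hypoxia response element (ACGTG, which overlaps the E-box), the ERR site (AAGGTCA), the NRF1 core (GCATGCGC), the ETS core bound by GABPA (CCGGAAG) and the FoxO core (GTAAACA). The GC box was the capitalised match in Mfn2, from base -72 to -67, and in Pink1, from base -19 to -14. It was found in 8 of the 9 members and in 33.0% of 27025 promoters of the same length. Dnm1l held a CCAAT box from base -222 to -218 and a GC box from -99 to -94. Bnip3 was the only member with CACGTG, from base -108 to -103, a palindrome that contains ACGTG on both strands. CACGTG was found in 6.0% of all promoters and ACGTG in 16.5%. Bnip3 also had 6 GC boxes and a GC content of 72.4%, against a median of 52.0% over all promoters and 62.0% in Mfn2, 57.2% in Pink1 and 47.6% in Dnm1l. CCAAT, found in 34.5% of promoters, was present in 6 members. The ETS core, found in 7.1%, was present in Fis1 and Mfn1, and the NRF1 core, found in 2.3%, in Opa1 alone. None of the 9 windows held the ERR site, the FoxO core or the TATA box, which were found in 4.0%, 3.1% and 13.0% of promoters. These matches describe letters in a window and are not measurements of binding.

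Values are log2 of the processed signal relative to the 75th percentile of each array. Differences between groups are thus on 1 scale for all genes, but levels of different probes cannot be compared. The differences can also vary between 2 probes of a gene, as given below, which limits any ranking of genes by their change. All 17 member probes were well above background on all 6 arrays, and no spot was saturated. The 75th percentile of the signal was 250.7 to 257 on the exercise arrays and 310.5 to 383.7 on the sedentary arrays. The arrays shared 1 slide and 1 scan. A part of the barcode in the array headers was read as a position on the slide and is here called the strip. No label names it so. The exercise arrays and that of sedentary mouse 1 had a different strip from those of sedentary mice 2 and 3. The 10 defining genes of skeletal muscle were detected on all 6 arrays. Their mean log2 level was higher on the exercise arrays (8.21 to 8.42) than on the sedentary arrays (7.27 to 7.78). By the limma test described below, 7 of the 10 were called higher, where 11.5% of everything tested was called higher. Schwann cell and nerve markers, 7 of 8 tested and Nefl not well above background on any array, had a lower mean on the exercise arrays (1.07 to 1.34) than on the sedentary arrays (1.44 to 1.70). Array means overlapped between groups for 9 macrophage markers (2.45 to 2.73 against 2.48 to 2.75), 8 endothelial markers (2.13 to 2.46 against 2.21 to 2.34), 8 adipocyte markers (2.42 to 3.86 against 3.43 to 3.82, with 7 of the 8 at lower values after exercise, a median log2 fold change of -0.68, and 1 called, Lep, which was the higher one) and the 6 red cell markers tested (2.97 to 3.40 against 2.26 to 3.34, with Epb42 among those not well above background on any array). The part of these cell types in the values below was not tested, and in whole muscle fewer cells of a type and less RNA per cell cannot be told apart.

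Mfn2 and Pink1 were upregulated in the exercise group on this scale. Their direction turned only when no scaling between arrays was applied, but neither passed with quantile normalization or the deposited table of values. On the scale of the main fit, no member passed the test in the other direction. Limma, with Benjamini-Hochberg adjustment over all 25005 genes and transcripts tested at a false discovery rate (FDR) of 0.05, thus called 2 of the 10 members higher, where 11.5% of everything tested was called higher. It called 0 members lower, where 6.15% of everything was called lower, while at an unadjusted p under 0.05 there were 3 members higher (21.6% of everything tested) and 1 lower, Dnm1l (15.4% of everything tested). By the study's rule for differentially expressed genes (DEGs), which also asks for a log2 fold change of 1 or more in either direction and is met by 2.78% of everything tested, 0 members were DEGs. The exercise arrays lay above all sedentary arrays for 5 members and below them for 1, where the background was 25.0% and 18.2%. The median log2 fold change of the members was 0.17, and that of everything tested was 0.03. These counts describe the list, and no test of the list as a whole was made.

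**Figure D1:**
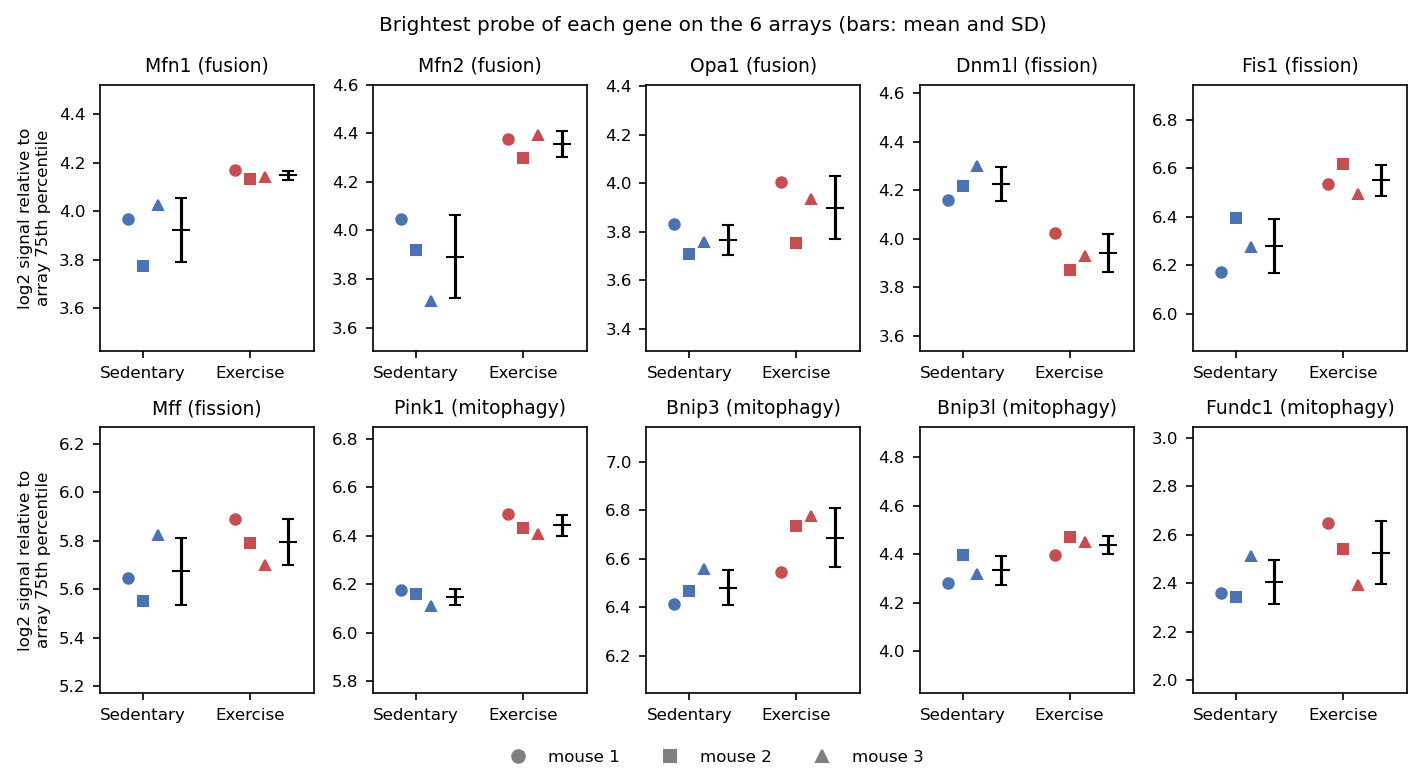
Log2 signal relative to the array's 75th percentile for the brightest probe of each of the 10 genes, with 1 panel per gene and 1 symbol per mouse in the sedentary (blue) and exercise (red) groups, and with bars for the mean and SD (n = 3). All vertical axes span the same range of log2 units, and Dnm1l is the only panel in which the exercise group lies lower on this scale, whereas without scaling between arrays all 10 genes do.

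Among the fusion genes, Mfn2 encodes the outer membrane mitofusin that also tethers mitochondria to the endoplasmic reticulum. Its log2 level was 4.38, 4.30 and 4.39 in the exercised mice and 4.05, 3.92 and 3.71 in the sedentary mice. The groups did not overlap, and the sedentary mice were spread more widely than the exercised mice. Mean levels were 4.36 ± 0.05 (SD, n = 3) and 3.89 ± 0.17 (SD, n = 3), a log2 fold change of 0.46 (SE, the standard error, 0.11, limma adjusted p = 0.0394) or 1.38-fold. This change was above that of 86.3% of everything tested. A second Mfn2 probe, whose log2 level was 2.92, 2.85 and 2.82 after exercise and 2.64, 2.44 and 2.43 without, also separated the groups. It differed by 0.36 (SE 0.10) with an adjusted p over all probes of 0.0517, which did not pass.

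Mfn1, the other mitofusin, had a log2 level of 4.17, 4.13 and 4.14 in the exercised mice and of 3.97, 3.78 and 4.03 in the sedentary mice. The groups did not overlap, but the gap between exercised mouse 2 and sedentary mouse 3 was small. The log2 fold change was 0.22 (95% interval -0.01 to 0.46, limma adjusted p = 0.146), which did not pass. Its second probe gave 0.33 (SE 0.10, adjusted p over probes 0.0679), again without overlap. Opa1, the inner membrane GTPase that also holds cristae together, was at 4.01, 3.75 and 3.94 after exercise and at 3.83, 3.71 and 3.76 without. Exercised mouse 2 lay within the sedentary range. The log2 fold change of Opa1 was 0.13 (95% interval -0.11 to 0.37, limma adjusted p = 0.370), and its second probe, in which the groups did not overlap, gave 0.21.

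Of the fission genes, Dnm1l was the only member whose value was lower in the exercise group. Its log2 level was 4.03, 3.87 and 3.93 in the exercised mice and 4.16, 4.22 and 4.30 in the sedentary mice. Every exercised mouse lay below every sedentary mouse. The mean levels were 3.94 ± 0.08 (SD, n = 3) and 4.23 ± 0.07 (SD, n = 3), with a log2 fold change of -0.28 (SE 0.09, 95% interval -0.50 to -0.07). The limma adjusted p was 0.0709, so the difference was not called. A single probe measured Dnm1l, and no second probe could check it.

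The adaptors of Dnm1l had values above 0, but neither passed the test. Fis1, a small tail-anchored protein of the outer membrane, had a log2 level of 6.53, 6.62 and 6.50 after exercise and of 6.17, 6.40 and 6.27 without. The groups did not overlap, and sedentary mouse 2 was nearest to the exercised mice. The log2 fold change was 0.27 (95% interval 0.04 to 0.50, limma adjusted p = 0.0944), and the second probe of Fis1 gave 0.20, also without overlap. Mff, a tail-anchored adaptor that recruits Drp1, was at 5.89, 5.79 and 5.70 in the exercised mice and at 5.65, 5.55 and 5.82 in the sedentary mice. Sedentary mouse 3 lay inside the exercise range. Its log2 fold change was 0.12 (95% interval -0.14 to 0.38, limma adjusted p = 0.449), while a second probe gave 0.24 without overlap (adjusted p over probes 0.120).

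Among the mitophagy genes, only Pink1 was called. Its log2 level was 6.49, 6.43 and 6.40 in the exercised mice and 6.18, 6.16 and 6.11 in the sedentary mice. The distance between the groups was several times the spread within either. Mean levels were 6.44 ± 0.04 (SD, n = 3) and 6.15 ± 0.03 (SD, n = 3), a log2 fold change of 0.30 (SE 0.08, limma adjusted p = 0.0484) or 1.23-fold. The second Pink1 probe, at 3.18, 3.25 and 3.13 after exercise and 2.72, 2.67 and 2.68 without, differed by 0.49 (SE 0.08, adjusted p over probes 0.0241). Both probes thus separated the groups, with the larger difference in the dimmer probe.

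The 3 mitophagy receptors did not pass the test. Bnip3, which binds LC3 on the phagophore and is known for its response to hypoxia, was at 6.55, 6.74 and 6.77 after exercise and at 6.42, 6.47 and 6.56 without. Exercised mouse 1 lay just below sedentary mouse 3. The log2 fold change was 0.21 (95% interval -0.03 to 0.44, limma adjusted p = 0.182). Bnip3l, also called Nix and known for clearing mitochondria from maturing red cells, was at 4.40, 4.47 and 4.45 in the exercised mice and at 4.28, 4.40 and 4.32 in the sedentary mice. The separation of the groups by this probe was less than the printed decimals, and a second probe gave 0.02 with overlap. The log2 fold change of the brighter Bnip3l probe was 0.11 (95% interval -0.09 to 0.30, limma adjusted p = 0.372). Fundc1, an outer membrane receptor for LC3 encoded on the X chromosome, was at 2.65, 2.54 and 2.39 in the exercised mice and 2.36, 2.34 and 2.51 in the sedentary mice. Sedentary mouse 3 exceeded exercised mouse 3, and the log2 fold change was 0.12 (95% interval -0.13 to 0.37, limma adjusted p = 0.430).

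**Figure D2:**
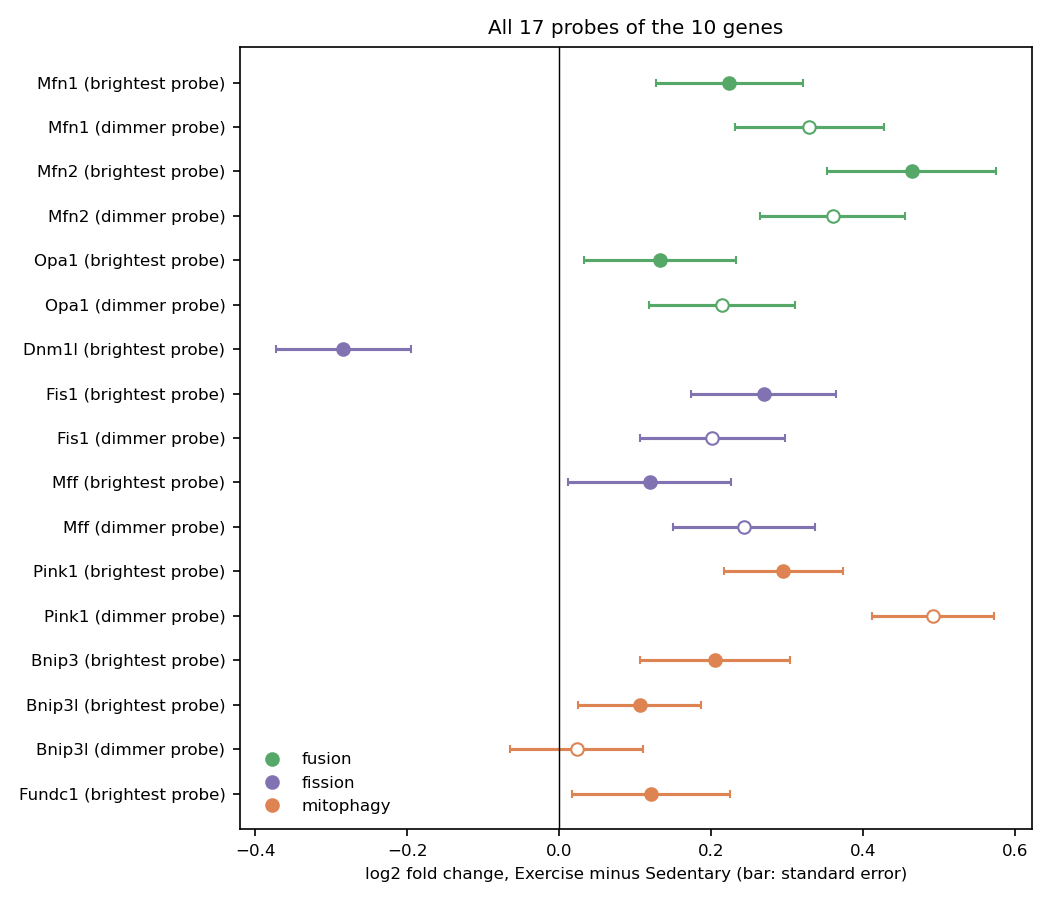
Log2 fold change, Exercise minus Sedentary, of each of the 17 probes of the 10 genes with its standard error, filled for the brightest probe of a gene and open for a dimmer one, in colours for fusion, fission and mitophagy. In all 7 genes with 2 probes both values are above 0, and the Dnm1l probe is the only value below 0.

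Against the sedentary mouse of the same strip, all 10 members kept their direction, with log2 differences of 0.31 for Mfn2, 0.27 for Pink1 and -0.22 for Dnm1l and between 0.06 (Opa1) and 0.38 (Fis1) for the others. This comparison has 1 sedentary array and no test. The other strip holds only sedentary arrays, so limma with the strip as a block gives these same differences and is not a separate check. With the strip as a block in limma, 0 members and 0 of all genes passed in the higher direction, 1 member was higher at an unadjusted p under 0.05 (11.9% of everything tested), and the adjusted p was 0.285 for Mfn2 and 0.263 for Pink1. Leaving out sedentary mouse 1 left Mfn2 called (adjusted p = 0.0258) and Pink1 not (adjusted p = 0.0575). When a different array was dropped, limma called 0 of everything tested higher in each of the 5 cases and at most 1 lower. A count of 0 members there, or with the strip as a block, says nothing about the members. In the 5 fits with an array dropped, the adjusted p was 0.0828 to 0.120 for Mfn2 and 0.0948 to 0.144 for Pink1. In them 2 or 3 of the 10 members were higher at an unadjusted p under 0.05, where 16.5 to 19.5% of everything tested was.

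The scaling between arrays moved the members together. Without scaling, the processed signal of Mfn2 was 5345, 5040 and 5273 in the exercised mice and 5141, 5603 and 5017 in the sedentary mice, which overlapped, and its log2 fold change was -0.01. On that scale the median of everything tested was -0.45, and all 10 members had values below 0. Relative to the median of everything tested, the Mfn2 difference was 0.44 with the 75th percentile, the array median, the deposited table of values or no scaling, and 0.31 with quantile normalization. For Pink1 the corresponding values were 0.27 and 0.04. For Dnm1l they were -0.31 and -0.44. The settings that share the first value differ only by 1 number per array, which the subtraction removes, so their agreement was fixed in advance. Dnm1l was lower in all 19 alternative settings (-0.76 to -0.20) and was called lower in 6 of the 18 that gave a test. Among the 6 were quantile normalization (limma adjusted p = 0.0367), the deposited table of values (limma adjusted p = 0.0379) and no scaling. Of everything tested, 1363, 3201 and 11280 were called lower there, respectively, against 1539 in the main fit. The median of everything tested was -0.13 with the deposited table, so Dnm1l calls there and without scaling include a shift of whole arrays. Of the 18 settings with a test, Mfn2 was called in 8 and Pink1 in 6. With quantile normalization, Mfn2 was at 0.29 (limma adjusted p = 0.098) and Pink1 at 0.02 (limma adjusted p = 0.868). With the deposited table, Mfn2 was at 0.31 (limma adjusted p = 0.099) and Pink1 at 0.14 (limma adjusted p = 0.255).

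**Figure D3:**
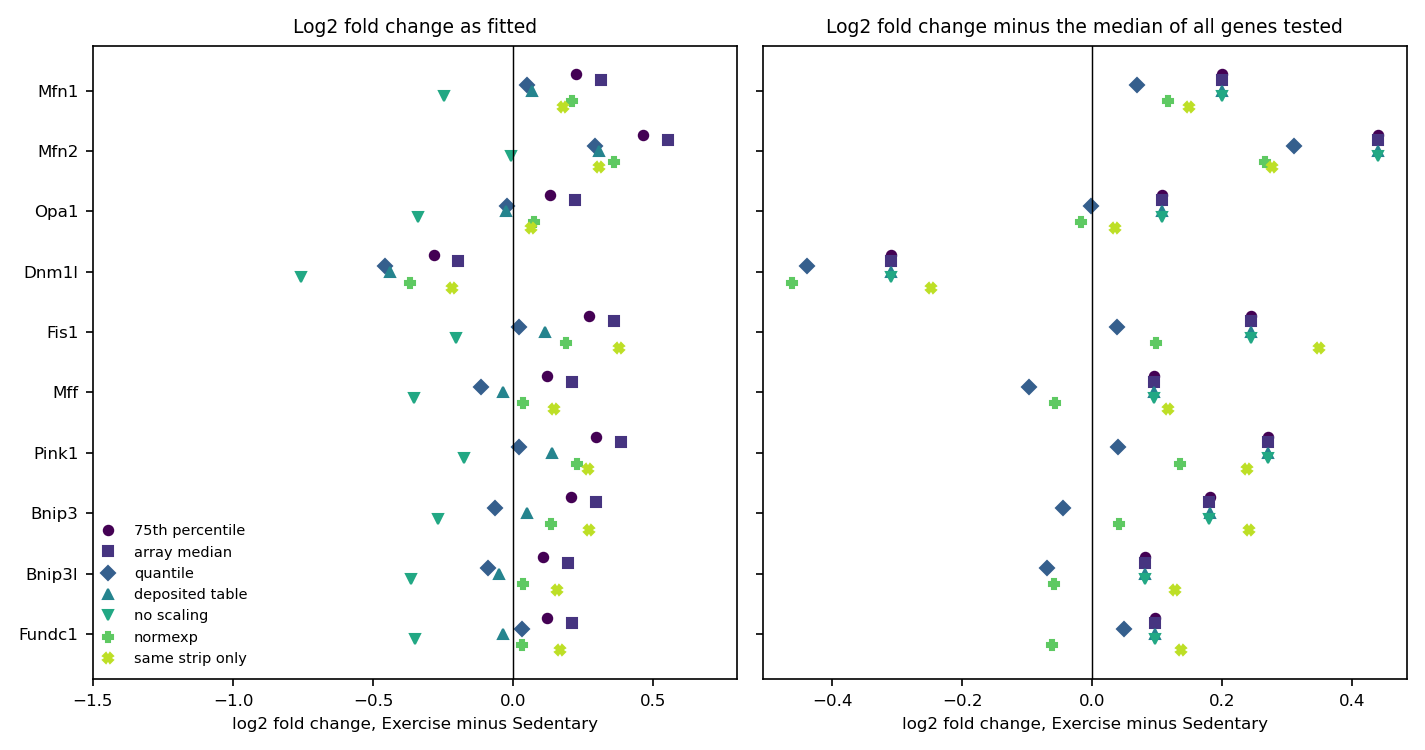
Log2 fold change of each of the 10 genes, Exercise minus Sedentary, under 7 ways of scaling or restricting the arrays, as fitted (left) and after the median of everything tested was subtracted (right). After the subtraction, Dnm1l lies below 0 and Mfn1, Mfn2, Fis1 and Pink1 above 0 under every setting plotted, whereas Opa1, Mff, Bnip3, Bnip3l and Fundc1 fall on both sides of 0.

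A factor applied to a whole array cancels in the difference between 2 members on that array. Each of the other 9 members was therefore set against Dnm1l, a reference chosen after its values were seen, so these differences are a description with no test. For Mfn2 the log2 difference from Dnm1l was 0.35, 0.43 and 0.46 in the exercised mice and -0.11, -0.30 and -0.59 in the sedentary mice. The groups stood apart, and the ratio of Mfn2 to Dnm1l signal was 1.68-fold higher after exercise (0.75 in log2). For Pink1 the difference from Dnm1l was higher by 0.58, for Fis1 by 0.55, for Mfn1 by 0.51 and for Bnip3 by 0.49. The 9 differences share the Dnm1l probe, whose change was above that of 21.1% of everything tested, and all 9 were higher after exercise with no overlap, by 0.39 (Bnip3l) to 0.75 (Mfn2). Of everything tested, 48.4% was likewise higher relative to Dnm1l without overlap, so the separation is not particular to the members, and it does not show which of a pair changed. Between related members, the log2 difference of Mfn2 from Mfn1 was 0.21, 0.16 and 0.25 after exercise and 0.08, 0.14 and -0.32 without. The groups did not overlap, and the shift of 0.24 had a two-sided exact permutation p of 0.1, the smallest that 3 arrays against 3 allow (0.2 adjusted over the 2 pairs tested). It rested on sedentary mouse 3, without which the shift was 0.10. The difference of Bnip3 from Bnip3l shifted by 0.10 with overlap (exact permutation p = 0.2, adjusted 0.2), and by 0.06 without exercised mouse 3 or sedentary mouse 2.

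**Figure D4:**
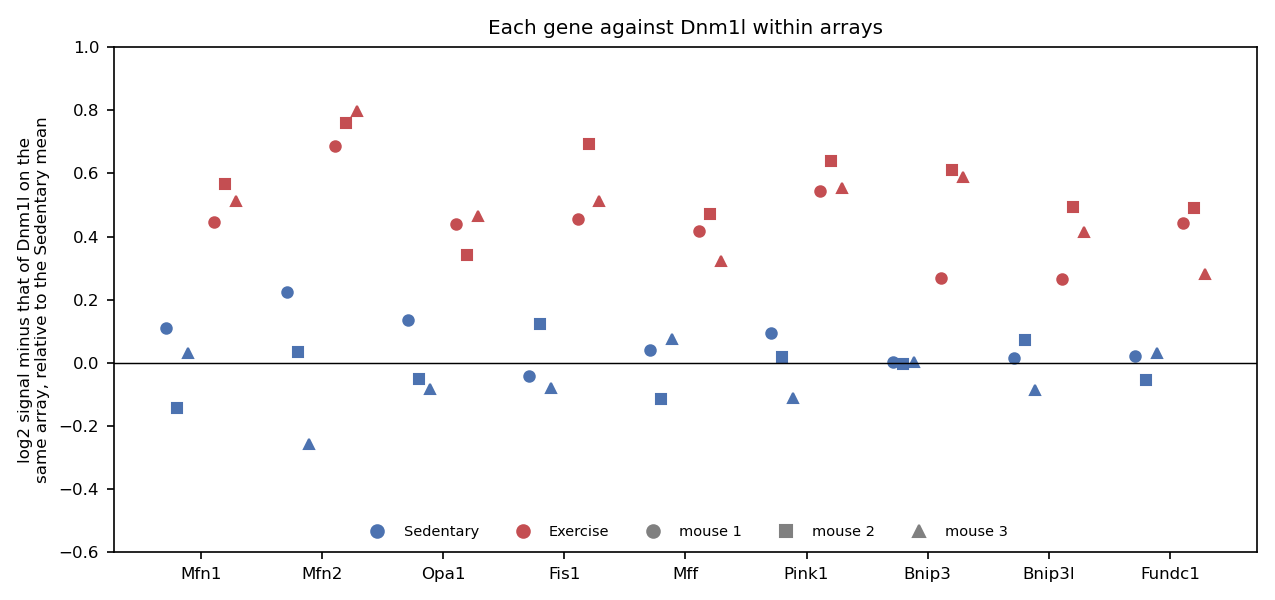
Log2 signal of 9 genes minus that of Dnm1l on the same array, set to a mean of 0 over the sedentary arrays, with 1 symbol per mouse. In every gene the 3 exercise arrays lie above the 3 sedentary arrays, with the widest gap to the sedentary mean in Mfn2.

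The partners of the members were described from lists chosen by function. Of 61 partner genes, all tested, 44 had higher and 17 lower values after exercise, where 13215 of 25005 had higher values over everything tested. Of the 61, 14 were called higher and 2 lower (23% and 3.28%, against 11.5% and 6.15% of everything tested), with a median log2 fold change of 0.18 against 0.03. Of 20 proteases, scaffolds and cofactors of fusion and of the inner membrane, 7 were called higher and 1 lower (median 0.23). Apoo, a subunit of the MICOS complex at the cristae junctions, had the highest rise and was at 6.28, 6.16 and 6.17 in the exercised mice and at 5.77, 5.53 and 5.51 in the sedentary mice. The groups did not overlap, and the log2 fold change was 0.60 (SE 0.10, limma adjusted p = 0.0241). Chchd3, another MICOS subunit, rose by 0.59 (SE 0.10, adjusted p = 0.0236), and prohibitin (Phb), a scaffold of the inner membrane that stabilises Opa1, by 0.54 (SE 0.10, adjusted p = 0.0255). The others called were Phb2, Micos10, Samm50 and Parl, the protease that cleaves Pink1. Miga1, a mitoguardin of the outer membrane that promotes fusion, was at 0.96, 1.02 and 1.09 after exercise and at 1.39, 1.91 and 2.10 without, and fell by 0.78 (SE 0.19, adjusted p = 0.0405), with a difference of -0.37 against the sedentary mouse of the same strip.

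Of 16 further fission and transport factors, limma called 7 higher and 0 lower (median 0.34), against 11.5% and 6.15% of everything tested. At an unadjusted p under 0.05, 9 were higher and 0 lower (21.6% and 15.4% of everything tested). Mtfp1, an inner membrane protein that promotes fission by Drp1, was the only partner that met the DEG rule. Its log2 level was 5.33, 5.30 and 5.34 in the exercised mice and 4.65, 4.09 and 3.96 in the sedentary mice. The exercised mice were nearly equal, and sedentary mouse 1 lay closest to them. The log2 fold change was 1.09 (SE 0.19, limma adjusted p = 0.0240), and against the sedentary mouse of the same strip the difference was 0.67. Trak1, an adaptor that links mitochondria to kinesin, rose by 0.51 (SE 0.11, adjusted p = 0.0298), and Marchf5, an outer membrane ubiquitin ligase that acts on Drp1 and mitofusins, by 0.40 (SE 0.09, adjusted p = 0.0373). The remaining calls were Mtfr1l, Mtfr2, Rhot2 and Mul1, each between 0.36 and 0.37.

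Of 25 further mitophagy genes, limma called 0 higher and 1 lower (median 0.11), against 11.5% and 6.15% of everything tested. At an unadjusted p under 0.05, 5 were higher and 2 lower, shares that do not exceed the 21.6% and 15.4% of everything tested. The gene called lower was Nbr1, an autophagy adaptor that binds ubiquitin. Nbr1 was at -0.46, -0.30 and -0.36 after exercise and at -0.01, 0.21 and 0.39 without. It fell by 0.57 without overlap (SE 0.12, limma adjusted p = 0.0331), with a difference of -0.36 against the sedentary mouse of the same strip. Sqstm1 and Map1lc3b, which encode the adaptor p62 and an LC3, were named for their known role in mitophagy after their values were seen. Their log2 fold changes were -0.05 (limma adjusted p = 0.736) and 0.02 (adjusted p = 0.892). In both genes the groups overlapped.

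Genes that mark mitochondrial content were higher in the same mice on the scale of the main fit. Their changes under other scalings were not examined, and without scaling the median of everything tested was -0.45. All 15 on the list had higher values after exercise, and the median log2 fold change was 0.42 against 0.03 for everything tested. Limma called 9 of them higher and 0 lower (60% and 0%, against 11.5% and 6.15% of everything tested). With the strip as a block, 0 of everything tested was called higher, and so no gene of this list. The array means of these 15 were 6.20 to 6.23 in the exercise group and 5.78 to 5.90 in the sedentary group, without overlap. Vdac3 and Vdac1, channels of the outer membrane, rose by 0.67 (limma adjusted p = 0.0234) and 0.61 (adjusted p = 0.0284), and Cox4i1, a subunit of cytochrome c oxidase, by 0.61 (adjusted p = 0.0265). Against the sedentary mouse of the same strip, Vdac1 differed by 0.37. The part of mitochondrial content or of the higher muscle markers in the rise of Mfn2 and Pink1 was not tested.

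**Figure D5:**
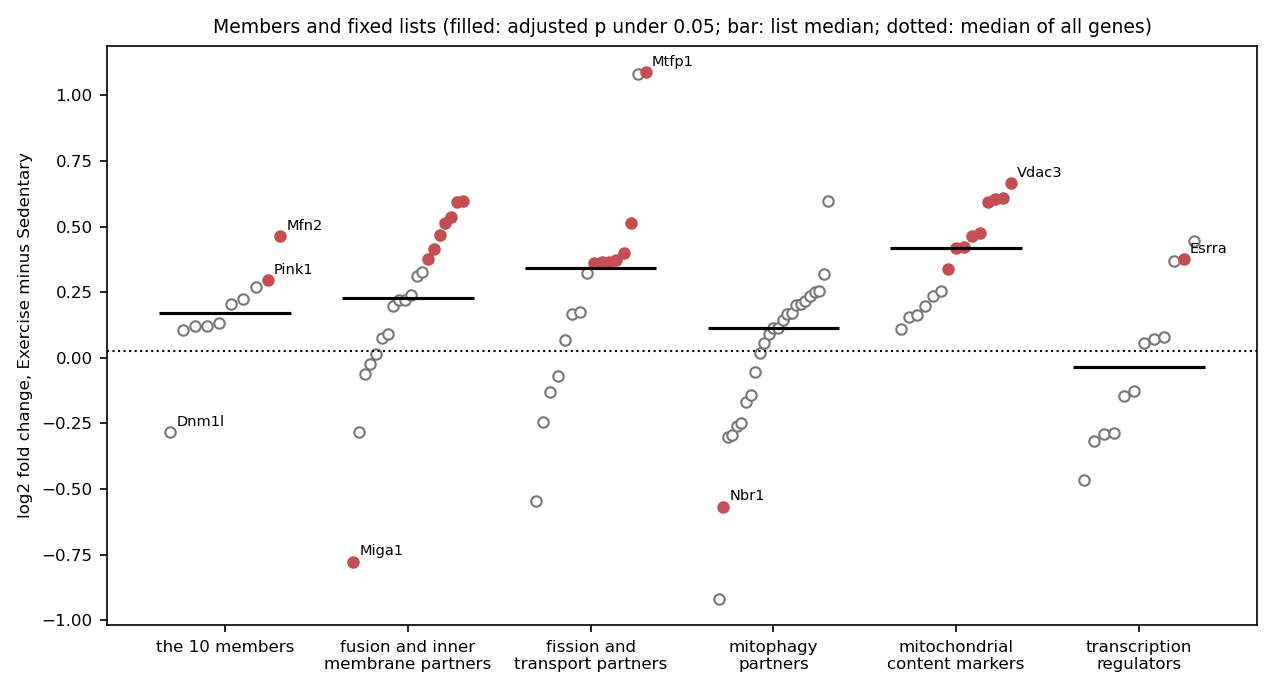
Log2 fold change, Exercise minus Sedentary, of each gene of the members and of 5 lists, with filled points for an adjusted p under 0.05, a bar for the median of a list and a dotted line for the median of everything tested (0.03). The list medians are 0.17, 0.23, 0.34, 0.11, 0.42 and -0.03 from left to right, and Dnm1l, Miga1 and Nbr1 lie below 0.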

How the data were processed

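Per the labels, total RNA from the quadriceps of 6 mice was labelled with Cy3. The authors read the images with Agilent Feature Extraction 12.1.0.3 and deposited, for each spot, an intensity on a linear scale (the processed signal, background-subtracted and spatially detrended), with flags that mark outlier, saturated and well detected spots. A further table deposited by the authors holds intensity values of all arrays, in which each array is its processed signal multiplied by 1 factor. How that factor was chosen is not given in the sources used here. The study's methods name iDEP and no scaling between arrays.

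Control spots (3671 of 62976) and outlier spots were left out, spots of a probe were averaged, and log2 values were taken relative to the 75th percentile of each array. A probe was kept (32726 of 56605) if at least 3 arrays had it well above background, and 22 with missing values were left out. Names came from a GRCm38 RefSeq table (34551 probes matched), used for names only. The brightest probe stood for a gene, which gave 25005 genes and transcripts, 15747 of them named. The comparison between groups used lmFit and eBayes of limma 3.58.1 under R 4.3.3, two-sided, with Benjamini-Hochberg adjustment and no covariates. The test was tried on simulated data, with planted changes larger than that of any member and no shift of strips or whole arrays. That trial therefore does not bear on the calls of the members. Named genes are all members, the 3 largest rises and falls past the FDR of each partner, content and regulator list, any DEG of these lists, and at most 3 genes of a marker list. Genes that complete a short count were named after their values were seen, and a few list genes are not reported here. The members and lists were chosen with earlier results of these data known. The red cell list lost 1 gene that had no match in the table. Alternatives were 3 other scalings, the deposited table, normexp (offset 50, on median signals), other filters and probe rules, each array left out, replicate and strip blocks, and eBayes with trend and robust. The number of arrays limits the precision.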

Additional observations from a re-analysis of the deposited data

How the results depend on the processing

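Dnm1l had a log2 fold change below 0 under every alternative. Mfn2 and Pink1 were above 0 under all but no scaling between arrays, where Mfn2 was at -0.0083 and Pink1 at -0.18. No scaling also reversed Mfn1 (-0.25), Opa1 (-0.34), Fis1 (-0.20), Mff (-0.35), Bnip3 (-0.27), Bnip3l (-0.37) and Fundc1 (-0.35). The deposited table of values reversed Opa1 (-0.0249), Mff (-0.0378), Bnip3l (-0.0512) and Fundc1 (-0.0363), and quantile normalization reversed Opa1 (-0.0219), Mff (-0.12), Bnip3 (-0.0636) and Bnip3l (-0.0892). Subtracting 1 number per array moves all genes by the same amount, which is how no scaling and the deposited table turned these signs; for quantile normalization the cause was not tested.

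Against 2 members called higher and 0 lower, counts were 0 and 1 with quantile normalization, no scaling and the deposited table, 1 and 0 with the array median, 2 and 1 with normexp or no filter, 3 and 1 with trend and robust, and 0 and 0 with the strip as a block. Against 14 partner genes called higher and 2 lower, they were 3 and 2 with quantile normalization, 10 and 1 with the array median, 1 and 18 without scaling, 4 and 3 with the deposited table, 16 and 4 with normexp, and 0 and 0 with the strip as a block. Of everything tested, 2867 were called higher and 1539 lower, against 617 and 11280 without scaling, 1172 and 3201 with the deposited table, 2680 and 872 with the array median, 6134 and 2021 with normexp, 1865 and 1363 with quantile normalization, and 9737 and 1921 without a filter. With trend and robust, 3716 of everything tested were called higher and 1995 lower. Under normexp, no filter, and trend and robust, calls over everything tested thus outnumbered those of the main fit in both directions. More genes and transcripts were tested without a filter than the 25005 of the main fit, so the counts there are not shares of 25005. Leaving out each array in turn gave 0 to 1 members higher and 0 lower, and 0 to 15 partners higher and 0 to 3 lower. These counts followed everything tested, with 3468 higher and 2063 lower without sedentary mouse 1 and 0 higher and at most 1 lower otherwise.

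Deviations of same-numbered arrays from their group means correlated at 0.02, 0.09 and 0.04. With 3 arrays per group, these values cannot show whether the replicate numbers pair the mice. With the replicate block, limma called 0 of everything tested in either direction, so 0 members (adjusted p = 0.0825 for Mfn2 and 0.100 for Pink1; 3 higher and 1 lower at an unadjusted p under 0.05, against 19.8% and 14.5% of everything tested) and 0 partners.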

Other observations

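Transcription regulators known to act on the members in muscle were measured on the same arrays. Of 12, 6 had higher and 6 lower values after exercise, and the median log2 fold change was -0.03 against 0.03 for everything tested. Limma called 1 of the 12 higher and 0 lower (8.33% and 0%, against 11.5% and 6.15% of everything tested). The gene called was Esrra, the nuclear receptor ERR alpha that acts with the coactivator PGC-1 alpha on mitochondrial genes. Its log2 level was 5.85, 5.88 and 5.88 in the exercised mice and 5.64, 5.43 and 5.41 in the sedentary mice. It rose by 0.38 without overlap (SE 0.09, limma adjusted p = 0.0435), and the difference was 0.23 against the sedentary mouse of the same strip. Ppargc1a, which encodes PGC-1 alpha, gave 0.08 with overlap (adjusted p = 0.557). Foxo3, a regulator of Bnip3 and of autophagy genes, and Hif1a, the hypoxia-induced regulator of Bnip3, gave -0.47 and -0.29 without overlap and did not pass the test (adjusted p = 0.0970 and 0.0973). Ppargc1a, Foxo3 and Hif1a were chosen after their values were seen.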
